A study of Mus musculus with 10 samples.

Results

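The 7 genes described here are the ETS transcription factors Elf5, Ehf and Elf3, the signal transducers Stat5a and Stat5b, and the Stat5 feedback genes Cish and Socs2. Their Ensembl identifiers were matched to these symbols in GENCODE M21 (GRCm38), which gave 7 genes of the 49671 gene identifiers counted, and all 7 passed the filter on low counts. The cells were sorted from mouse mammary gland by flow cytometry and each sorted sample was sequenced as a bulk RNA library, with 2 libraries in each of 5 populations. Tomato hybrid cells (THC), Tomato luminal cells (TLC) and Tomato basal cells (TBC) carry a treatment label of luminal cell ablation. Luminal cells (LC) and basal cells (BC) have no such label, and 1 library of each, the second, is marked WT. Tomato is a red fluorescent reporter. The labels give no mouse line, age, driver of the reporter, method of ablation or number of animals, so p-values measure only the spread between these libraries, and the replicates may be technical. Ablation and Tomato marking cannot be told apart in any comparison of a Tomato population with LC or BC.

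ETS factors bind DNA through a shared domain, and Elf5, Ehf and Elf3 belong to its epithelial branch. In the mammary gland Elf5 is known as a driver of alveolar cell fate, the luminal fate that makes milk. Prolactin bound to its receptor Prlr activates the kinase Jak2, which phosphorylates Stat5a and Stat5b. Phosphorylated Stat5 enters the nucleus and switches on milk genes together with Cish and Socs2, whose products damp cytokine signalling. RNA levels do not read the phosphorylation itself.

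STAT proteins bind palindromic sites of the form TTCNNNGAA, and that motif was searched on both strands in the RefSeq promoter windows (250 bases before to 50 bases from each start, GRCm38.p6). It was present in 8.3% of 32851 windows, and 0.457% held at least 2 matches. Of the 7 genes, 5 had a window (8 windows in all), and Cish was the only one with a match, holding 2 that do not overlap. Among the genes known to respond to prolactin, 4 of the 14 milk and alveolar genes with a window held a match. The other lists had matches in 1 of 8 brakes, 1 of 18 receptor, JAK and STAT genes, 2 of 18 other ETS factors and 0 of 8 luminal progenitor genes. The sites of Cish, of the ETS factor Etv6, of a casein pair, of the prolactin receptor and of the brake Socs3 are shown as examples. The levels of these genes are described further on. Those of Csn1s1 are too, but the sequence of its match is not printed. Each is 30 bases, written 5′ to 3′ on the gene's strand with the motif in capitals.
Cish, chr9:107296654-107296683, plus strand: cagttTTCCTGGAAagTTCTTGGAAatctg
Etv6, chr6:134035711-134035740, plus strand: agtttctctcTTCCAGGAAggaaaacattc
Csn2, chr5:87699499-87699528, minus strand: tcacgtagacTTCTTGGAAttgaagggact
Csn1s2a, chr5:87774460-87774489, plus strand: ttatagtgctTTCTTAGAAttacaatgact
Prlr, chr15:10223786-10223815, plus strand: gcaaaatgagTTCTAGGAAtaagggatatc
Socs3, chr11:117969501-117969530, minus strand: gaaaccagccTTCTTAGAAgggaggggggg
These matches are descriptions of the letters and do not show binding. The Cish matches began 0 and 11 bases from the RefSeq start, the Csn2 match began 93 bases before it (offset -93), and the Prlr match (offset -110) lay in 1 of its windows.

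**Figure D1:**
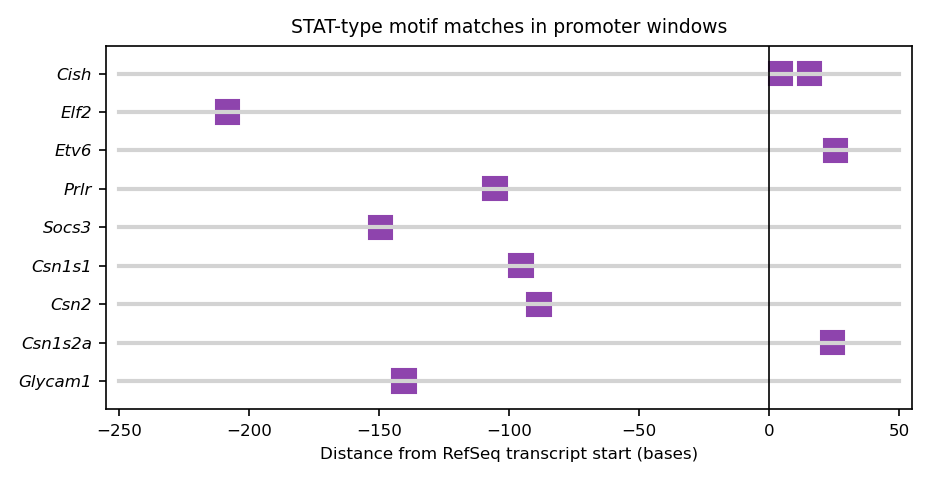
Position of each TTCNNNGAA match (purple boxes, 9 bases) along the promoter window (grey line), in bases from the RefSeq transcript start, for the listed genes with a match. Cish holds 2 matches at the start, and each other gene holds 1.

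Reads assigned to genes ranged from 2757773 in THC replicate 1 to 13685674 in LC replicate 2, so a count of 3 corresponds to 1.16 CPM in the shallowest library. CPM are counts scaled to a common library size after TMM normalization. The labelled lineages matched their markers: the summed level of 5 basal markers (Krt5, Krt14, Trp63, Acta2, Oxtr) was 1020.4 and 595 CPM in TLC and 9572 and 7015 CPM in TBC, and it was 108 and 67.0 CPM in LC and 6242 and 8678 CPM in BC. THC libraries had 3764 and 2677 CPM of basal markers and 3328 and 2353 CPM of 5 luminal markers (Krt8, Krt18, Krt19, Epcam, Cldn3), between the Tomato lineages on each list. THC also had the highest sums of 6 endothelial markers (579.5 and 588.5 CPM, against 94.4 to 411 in the other 8 libraries), of 6 immune markers (151 and 61.7 CPM, against 18.8 to 48.2) and of 6 fibroblast markers (837 and 1900 CPM, against 102 to 585). Not every marker followed its sum. Col1a1, Col1a2, Col3a1 and Lum were highest in both THC libraries. Dcn was 57.7 and 152 CPM in THC against 269 and 274 CPM in LC. Pdgfra was 24.8 and 31.0 CPM in THC against 69.8 and 51.4 CPM in BC. Of the immune markers, Cd68 was 14.3 and 14.2 CPM in THC against 28.4 and 15.5 CPM in BC. Mean Cd3e was 2.43 CPM in THC against 3.04 CPM in LC. No marker on these lists was at 0 in all libraries, and the part of such cells in the THC values was not tested. In THC replicate 1, 43% of reads were not uniquely placed, against 14.6% to 22.4% in the other 9 libraries. In bulk samples, fewer cells of a type and less RNA per cell cannot be told apart.

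The ETS factors separated luminal from basal cells, in the ablated as in the unablated gland. Elf5 was 97.4 and 81.8 CPM in TLC and 6.63 and 13.1 CPM in TBC. It was 111 and 98.9 CPM in LC and 15.7 and 9.86 CPM in BC. Every luminal library was therefore well above every basal library. Ehf showed the same order with higher levels, at 569.9 and 530.2 CPM in TLC and 17.8 and 24.3 CPM in TBC, and at 299.9 and 258 CPM in LC and 42.9 and 24.2 CPM in BC. Elf3 had the smallest gap of the 3, at 63.7 and 70.4 CPM in TLC and 31.7 and 28.3 CPM in TBC, and at 161 and 142 CPM in LC and 64.5 and 76.95 CPM in BC. In each lineage comparison the luminal and basal libraries of these genes did not overlap, which was true of 54.5% of all tested genes in TLC against TBC and of 60.3% in LC against BC.

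In LC against BC, the quasi-likelihood test of edgeR, its p-values adjusted by Benjamini-Hochberg over 19757 genes, called 3 of the 7 genes, all higher, where 24% of all genes were called and 11.5% were called higher. The log2 fold changes were 3.07 ± 0.47 for Elf5 (SE, adjusted p = 0.0011), 3.07 ± 0.36 for Ehf (adjusted p = 0.00012) and 1.10 ± 0.19 for Elf3 (adjusted p = 0.0016). In TLC against TBC the same 3 genes were called higher, where 13.6% of all genes were called and 5.59% were called higher. Ehf had the largest of these changes at 4.70 ± 0.39 (adjusted p = 5e-05), followed by Elf5 at 3.14 ± 0.47 (adjusted p = 0.0018) and Elf3 at 1.16 ± 0.20 (adjusted p = 0.0024). These 6 calls remained in all 18 alternative settings. Stat5a, Stat5b, Cish and Socs2 were called in neither lineage comparison.

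**Figure D2:**
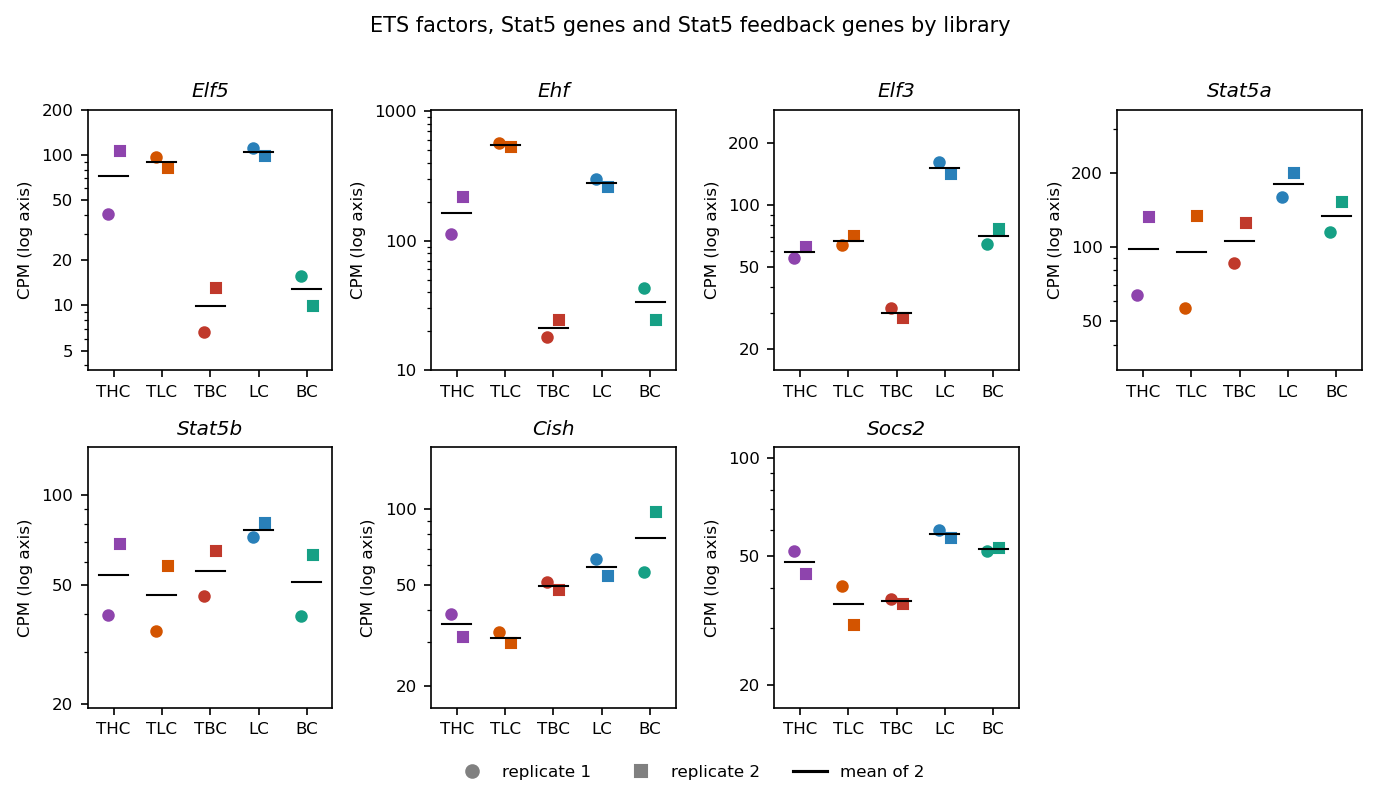
Level of each of the 7 genes in every library, in TMM-scaled CPM on a log axis; circles are replicate 1, squares replicate 2 and bars the mean of 2. Elf5 and Ehf stand high in TLC and LC and low in TBC and BC, and the lowest Elf3 values are the 31.7 and 28.3 CPM of TBC.

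Hybrid cells carried Elf5 and Ehf at levels far above both basal populations. Elf5 was 40.3 and 106 CPM in THC and Ehf was 113 and 217 CPM, so the THC replicates differed by 2.64 times for Elf5 and 1.93 times for Ehf. All THC values of the pair lay above those of TBC and BC. Of all tested genes, 26.2% had both THC libraries above both of TBC, and 27.9% had them above both of BC. Against TBC, where 3.72% of all genes were called and 2.57% were called higher, 3 of the 7 genes rose in THC: Elf5 by 2.88 ± 0.47 log2 (adjusted p = 0.01), Ehf by 2.97 ± 0.36 (adjusted p = 0.0018) and Elf3 by 0.98 ± 0.20 (adjusted p = 0.02). The Ehf call remained whichever library was left out. Elf5 lost its call without TBC replicate 1 (adjusted p = 0.079) or THC replicate 2 (0.052), and Elf3 lost it without either TBC library (0.11 and 0.19) or either THC library (0.063 and 0.15).

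Against BC, where 7.71% of all genes were called, 5% higher and 2.72% lower, 3 of the 7 genes were called in THC. Elf5 rose by 2.57 ± 0.47 log2 (adjusted p = 0.012) and Ehf by 2.32 ± 0.35 (adjusted p = 0.0051). Cish fell, with a log2 fold change of -1.16 ± 0.27 (adjusted p = 0.025). Without BC replicate 2 none of the 3 remained called (adjusted p = 0.11 for Elf5, 0.054 for Ehf and 0.18 for Cish). Elf5 was also lost without THC replicate 2 (0.061), and Cish without THC replicate 1 (0.08) or THC replicate 2 (0.13), and in a fit of THC and BC alone (0.05).

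Against each luminal population, 1 of the 7 genes was called in THC. Elf3 was 55.4 and 62.7 CPM in THC, below every LC library, as were 27.7% of all tested genes. It fell by 1.36 on the log2 scale (SE 0.20, adjusted p = 0.0014) in THC against LC, where 12.9% of all genes were called and 4% were called lower. Ehf was lower in THC than in TLC by -1.73 ± 0.34 log2 (adjusted p = 0.031), where 1.61% of all genes were called and 0.0911% were called lower. That Ehf call was lost without THC replicate 1 (adjusted p = 0.16), THC replicate 2 (0.054), TLC replicate 1 (0.16), TLC replicate 2 (0.2) or TBC replicate 2 (0.054). Ehf in THC lay under both LC libraries, with a log2 difference of -0.75 ± 0.33 (adjusted p = 0.18). Elf5 in THC overlapped both luminal populations, with log2 differences of -0.26 ± 0.43 against TLC (adjusted p = 0.92) and -0.49 ± 0.42 against LC (adjusted p = 0.52). Against the mean of TBC and TLC, where 0.38% of all genes were called, none of the 7 genes was called in THC. The largest value there was 1.31 ± 0.36 log2 for Elf5 (adjusted p = 0.2).

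The ablation comparisons set each Tomato lineage beside its unablated counterpart, and Elf3 was the gene of the 7 that passed in the luminal one in the main fit. Cish (adjusted p = 0.052) and Socs2 (0.057) lay just over the threshold there. Several alternative settings called more of the 7 genes in that comparison, as the last section lists. In TLC against LC, where 8.22% of all genes were called and 3.77% were called lower, 1 of the 7 genes was called, Elf3, which fell by 1.18 on the log2 scale (SE 0.19, adjusted p = 0.0043), a call that remained in all 18 alternatives. The exons of Elf3 overlap Gm26642 on the opposite strand. Both TLC values of Elf3 lay near those of BC and under those of LC. Of all tested genes, 24.9% had both TLC libraries under both of LC. In TBC against BC the Elf3 difference was of like size, at -1.24 ± 0.20 log2 (adjusted p = 0.19). No gene of the 19757 was called in that comparison, although 1725 had a raw p under 0.05 and DESeq2 called 207, and DESeq2 gave Elf3 an adjusted p of 0.00032. The difference between the lineages in the Elf3 change was 0.06 ± 0.27 log2 (adjusted p = 0.97), and a p that misses the threshold does not show that the changes were equal. None of the 7 genes was called in this difference, where 0.911% of all genes were.

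The ratio of Ehf to Elf5 was highest in TLC, a description that was not tested. Ehf averaged 550.05 ± 28.1 CPM in TLC and 279 ± 29.9 CPM in LC (SD, n = 2 each), a log2 difference of 0.98 ± 0.33 that missed the threshold (adjusted p = 0.099) and was called by DESeq2 (adjusted p = 0.046). Elf5 averaged 89.6 ± 11.0 CPM in TLC and 105 ± 8.77 CPM in LC, a log2 difference of -0.23 ± 0.42 (adjusted p = 0.82). Per kilobase of exon, Ehf exceeded Elf5 by 6.17 and 6.83 times in TLC, while the ratio was 2.95 and 2.16 in THC, 2.84 and 1.95 in TBC, 2.84 and 2.75 in LC and 2.89 and 2.59 in BC. The ratio in both TLC libraries was thus above that in the other 8. In TBC against BC the log2 difference of Ehf was -0.65 ± 0.35 (adjusted p = 0.62), and the lineage difference of the Ehf change was 1.63 ± 0.48 (adjusted p = 0.18). The genes are neighbours on chromosome 2: Ehf lies on the minus strand at chr2:103263433-103303278 and Elf5 on the plus strand at chr2:103411688-103450989, with 108409 bases between them.

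**Figure D3:**
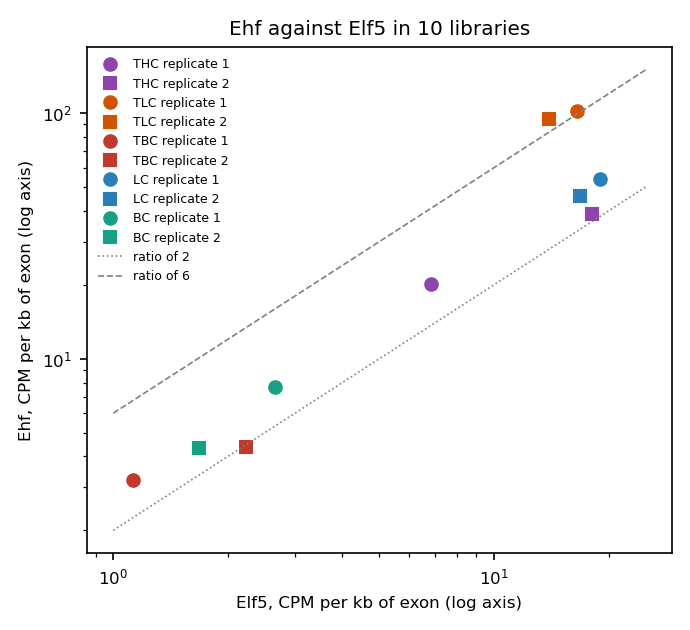
Ehf against Elf5 in the 10 libraries, both in CPM per kb of exon on log axes; colours mark the population, circles replicate 1 and squares replicate 2. The grey lines mark Ehf to Elf5 ratios of 2 and 6, and the TLC libraries, at 6.17 and 6.83, sit beside the upper line while the other 8 lie nearer the lower.

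Stat5a and Stat5b were present in every population and, in the main fit, passed the threshold in none of the 11 contrasts. Stat5a was 63.5 and 132 CPM in THC, 56.5 and 134 CPM in TLC, 85.7 and 125 CPM in TBC, 159 and 199.9 CPM in LC and 115 and 151 CPM in BC. Stat5b was 39.9 and 68.5 CPM in THC, 35.1 and 57.9 CPM in TLC, 46.1 and 65.3 CPM in TBC, 72.7 and 80.6 CPM in LC and 39.4 and 63.3 CPM in BC. LC held the highest libraries of each gene, and the other populations overlapped one another. The second library was higher than the first in all 5 populations for both genes, by 1.26 to 2.37 times for Stat5a and by 1.11 to 1.72 times for Stat5b. Of all tested genes 9.86% were higher and 8.55% were lower in the second library throughout. Within the first libraries, and again within the second, every Tomato population had less Stat5a than LC and BC. The share of all tested genes with that order was not computed. Stat5b did not show it, as BC (39.4 and 63.3 CPM) lay under THC (39.9 and 68.5 CPM) and TBC (46.1 and 65.3 CPM) in each set. The titles number the first libraries 44 to 48 and the second 80 to 84, and what separates these sets is not stated. The main fit does not account for these sets. A fit with a block on them called Stat5a and Stat5b in some contrasts, which the last section names.

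With that spread, the log2 differences of Stat5a were -0.91 ± 0.43 in TLC against LC (adjusted p = 0.26) and 0.43 ± 0.43 in LC against BC (adjusted p = 0.54). Those of Stat5b were -0.72 ± 0.34 in TLC against LC (adjusted p = 0.24) and 0.57 ± 0.33 in LC against BC (adjusted p = 0.26). Per kilobase of exon, Stat5a exceeded Stat5b in every library, by 1.24 to 2.27 times. The length used is the union of annotated exons, 7133 bases for Stat5a and 5539 for Stat5b. Their longest coding transcripts have 3888 and 5213 bases, so the size of this ratio depends on the length chosen. The pair is a tandem duplicate on chromosome 11 with 8626 bases between them, and 15.8% of the 50-base windows of the longest Stat5a coding transcript also occur in Stat5b, so reads from those stretches may have been left out or split. Stat5a exons also overlap Stat3 on the opposite strand, and the strand setting of the counting is not given in the sources used here.

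Cish, which binds activated cytokine receptors, and Socs2, a brake of growth hormone signalling, were lower in the Tomato libraries. Cish was 38.7 and 31.4 CPM in THC, 32.6 and 29.6 CPM in TLC, 51.6 and 47.9 CPM in TBC, 63.5 and 54.6 CPM in LC and 56.4 and 98.0 CPM in BC. All 6 Tomato libraries lay under all 4 of LC and BC, and BC replicate 2 stood highest. Socs2 was 51.9 and 44.005 CPM in THC, 40.5 and 30.8 CPM in TLC, 36.9 and 35.6 CPM in TBC, 60.2 and 56.7 CPM in LC and 51.9 and 53.1 CPM in BC. Its Tomato libraries also lay under those of LC and BC, but the highest Tomato value (51.91 CPM) and the lowest other value (51.94 CPM) almost touched. In THC the log2 differences of Socs2 were small, at -0.14 ± 0.21 against BC (adjusted p = 0.73) and -0.29 ± 0.21 against LC (adjusted p = 0.42). Among all tested genes, 1.61% had every Tomato library under every LC and BC library, and the other 5 of the 7 genes overlapped. The exons of Cish overlap Gm17041 and Gm17040 on the opposite strand.

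Lineage by lineage, neither gene passed the threshold in the main fit. The fit with a block on the library sets called both in TLC against LC, as the last section gives. In TLC against LC the log2 differences were -0.93 ± 0.26 for Cish (adjusted p = 0.052) and -0.72 ± 0.21 for Socs2 (adjusted p = 0.057). In TBC against BC they were -0.64 ± 0.26 for Cish (adjusted p = 0.54) and -0.53 ± 0.21 for Socs2 (adjusted p = 0.52). A contrast of the mean of TBC and TLC with the mean of BC and LC was added after these values were seen. It called 3 of the 7 genes, all lower, where 7.19% of all genes were called and 2.8% were called lower. Elf3 fell by 1.21 on the log2 scale (SE 0.14, adjusted p = 0.0014), Cish by 0.78 (SE 0.18, adjusted p = 0.028) and Socs2 by 0.63 (SE 0.15, adjusted p = 0.028). Elf3 remained called whichever library was left out. Cish lost its call without LC replicate 1, either TBC library, either TLC library or BC replicate 2 (adjusted p = 0.066 to 0.12), and Socs2 without either BC library, either LC library, either TBC library or TLC replicate 2 (0.056 to 0.11).

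**Figure D4:**
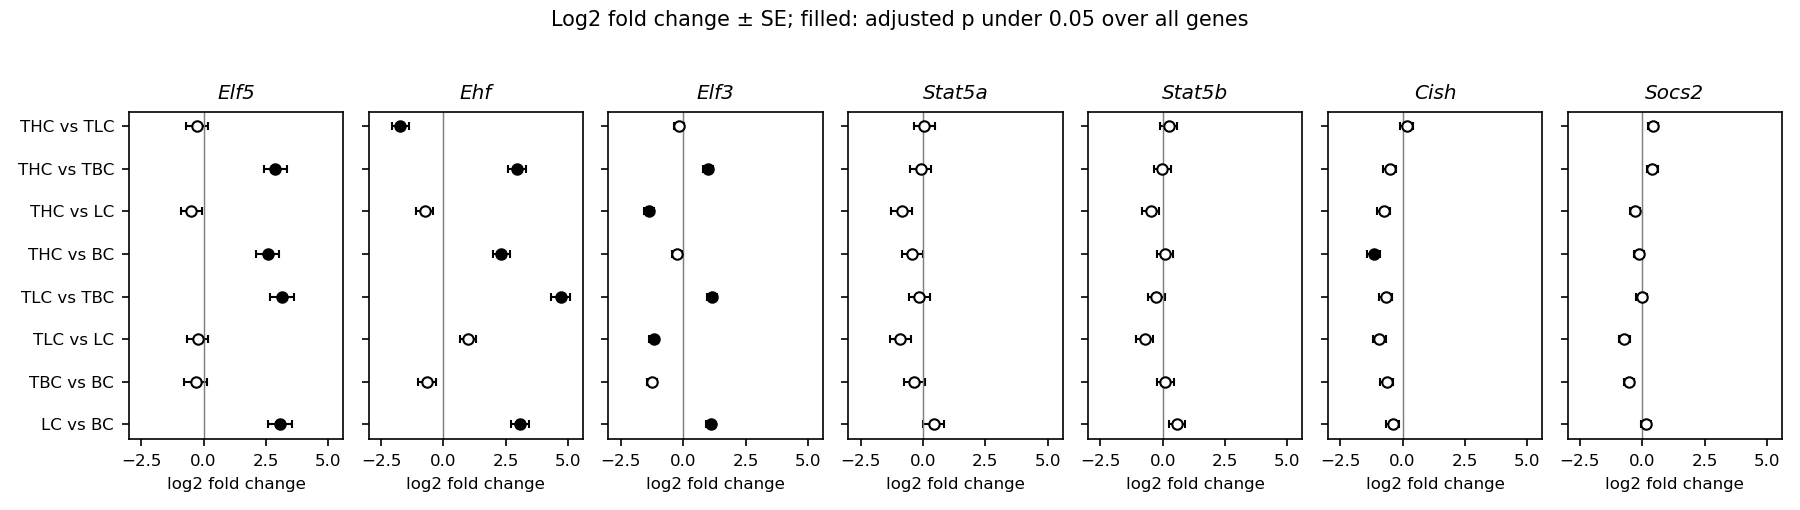
Log2 fold change with its SE for each of the 7 genes in 8 comparisons of 2 populations; filled points have an adjusted p under 0.05 over all genes. The filled points of Elf5 and Ehf lie in comparisons of a luminal or hybrid population with a basal one, apart from Ehf in THC against TLC, and Stat5a, Stat5b and Socs2 have none.

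Compared per length of the union of annotated exons, Ehf and Elf3 had the highest mean levels of the 7 genes in both luminal populations. Such an order between genes depends on the length chosen. Ehf averaged 98.6 CPM per kb of exon in TLC and 50.005 in LC, and Elf3 averaged 30.2 in TLC and 68.5 in LC. Ehf thus led in TLC and Elf3 in LC. Elf3 was also the most abundant ETS factor of the 3 in BC, at 31.9 CPM per kb, where Ehf averaged 6.02 and Elf5 2.17. In THC Ehf averaged 29.6 and Elf3 26.6 CPM per kb, and the order of these 2 genes differed between the THC replicates. Stat5a averaged 13.3 CPM per kb in TLC and 25.1 in LC, beside 15.2 in TLC and 17.9 in LC for Elf5, and Cish and Socs2 stayed between 3.74 and 12.03 in the 5 populations.

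In the order of the populations, Ehf was highest in TLC, then LC, THC and BC, with no overlap between neighbours, and BC overlapped TBC. Such separation was common: of all tested genes, 49.2% did not overlap in TLC against LC and 56.6% in THC against LC. The shares were 53.9% in THC against BC, 60.3% in LC against BC, 38.1% in THC against TLC and 51.7% in THC against TBC. Elf5 was highest in LC and then TLC without overlap, but the nearest libraries were 98.9 and 97.4 CPM (log2 difference -0.23 ± 0.42, adjusted p = 0.82). For Elf5, TLC overlapped THC, and BC overlapped TBC. Elf3 was highest in LC, BC overlapped TLC, and THC and then TBC followed without overlap. For Cish BC overlapped LC, TBC came next without overlap, and THC overlapped TLC at the low end.

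Prlr, the receptor upstream of Stat5, passed the threshold in 6 of the 8 comparisons of 2 populations. It was 1393 and 1249.8 CPM in THC, 718 and 781 CPM in TLC, 243 and 130.1 CPM in TBC, 4247 and 4683 CPM in LC and 221 and 238 CPM in BC. The populations stood apart except that the range of TBC spanned that of BC. Prlr fell by 2.57 on the log2 scale in TLC against LC (SE 0.33, adjusted p = 0.0011) and by 1.76 in THC against LC (SE 0.32, adjusted p = 0.0045). It rose by 4.28 ± 0.35 in LC against BC (adjusted p = 1.1e-05), by 2.01 ± 0.32 in TLC against TBC (adjusted p = 0.0016), and in THC by 2.83 ± 0.33 against TBC (adjusted p = 0.0014) and 2.52 ± 0.33 against BC (adjusted p = 0.0026). These 6 calls remained in all 18 alternatives. Prlr also marks hormone-sensing luminal cells, and the summed level of 4 other markers of those cells (Esr1, Pgr, Foxa1, Areg) was 565 and 715 CPM in TLC and 1789 and 2193.5 CPM in LC. The part of that cell type in the Prlr values was not tested.

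Jak2, the kinase bound to Prlr, was 99.5 and 99.3 CPM in TLC and 198 and 216 CPM in LC. It fell by 1.06 on the log2 scale in TLC against LC (SE 0.22, adjusted p = 0.014), and the call was lost without TLC replicate 1 (adjusted p = 0.086), TLC replicate 2 (0.06) or LC replicate 2 (0.086). Of 19 tested receptor, JAK and other STAT genes (20 listed, Epor with too few counts), 1 rose and 2 fell in TLC against LC, where 8.22% of all genes were called, and 4 rose and 1 fell in LC against BC, where 24% were. In TLC against TBC 3 rose and 1 fell, in THC 2 rose against TBC, 1 rose against BC, and 1 rose and 1 fell against LC, and none was called in THC against TLC. The shares of all genes called there were 13.6% in TLC against TBC, 3.72%, 7.71% and 12.9% in THC against TBC, BC and LC, and 1.61% in THC against TLC. The median log2 fold change of the list was -0.64 in TLC against LC and 0.08 in LC against BC, beside 0.0 and -0.04 over all genes. Jak3 rose by 2.29 ± 0.39 log2 in LC against BC (adjusted p = 0.0014). Stat4, a STAT best known in lymphocytes, was 12.5 and 16.4 CPM in TLC and 0.867 and 0.431 CPM in LC, and it rose by 4.50 ± 0.68 log2 (adjusted p = 0.0029) in TLC, from counts of 71 and 180 in TLC and 8 and 6 in LC. The immune marker sums of these libraries were 24.4 and 27.3 CPM in TLC and 26.4 and 18.9 CPM in LC. Single markers in these sums differed. Cd3e was 0.351 and 0.819 CPM in TLC and 2.06 and 4.02 CPM in LC. Lyz2 went the other way, at 13.9 and 6.37 CPM in TLC and 3.04 and 1.79 CPM in LC. The part of immune cells in the Stat4 values was not tested.

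Of 14 SOCS and other brakes of the pathway, 2 rose and 3 fell in LC against BC, none rose and 2 fell in TLC against TBC, and none was called in THC against TBC or in THC against TLC. In THC 1 fell against BC, and 1 rose and 2 fell against LC. All-gene shares were 24% in LC against BC, 13.6% in TLC against TBC, 7.71% in THC against BC, 12.9% in THC against LC, 3.72% in THC against TBC and 1.61% in THC against TLC. Socs3, a feedback gene of Stat3 signalling, was 413 and 452 CPM in THC, 182 and 231.5 CPM in TLC, 988 and 915 CPM in TBC, 156 and 417 CPM in LC and 966 and 1509 CPM in BC. The basal populations thus held the highest Socs3 levels, with THC between the Tomato lineages. It fell by 2.20 on the log2 scale in TLC against TBC (SE 0.41, adjusted p = 0.0045), a call lost without TLC replicate 1 (adjusted p = 0.054). Socs1 fell by 2.42 in LC against BC (SE 0.39, adjusted p = 0.00095), and the phosphatase gene Ptpn1 rose by 1.28 ± 0.20 (adjusted p = 0.00072). In TLC against LC the brakes that fell were Socs4, with a log2 fold change of -0.77 ± 0.19 (adjusted p = 0.029), and Ptpn1, with -0.76 ± 0.20 (adjusted p = 0.036). The Socs4 call was lost without either LC library, either TLC library or TBC replicate 1 (adjusted p = 0.051 to 0.14), and the Ptpn1 call without any 1 of the 8 libraries of THC, TLC, TBC and LC (0.05 to 0.21).

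Milk and alveolar genes were called more often higher than lower in the lineage comparisons. Of 16 tested genes (21 symbols listed), 8 rose and 1 fell in LC against BC, and 9 rose in THC against BC. Against TBC, 5 rose in THC and 5 rose in TLC. In TLC against LC 1 rose and 1 fell, in THC against LC 3 rose and 1 fell, and in THC against TLC 1 fell. Of all genes 24% were called in LC against BC, 7.71% in THC against BC, 3.72% in THC against TBC, 13.6% in TLC against TBC, 8.22% in TLC against LC, 12.9% in THC against LC and 1.61% in THC against TLC. The median log2 fold changes were 2.28 in LC against BC, 2.13 in THC against BC, 2.48 in THC against TBC and 0.80 in TLC against TBC, but -0.75 in TLC against LC, -0.33 in THC against LC and -1.3 in the lineage difference of ablation, with all-gene medians from -0.04 to 0.05. Wfdc18, a secreted protein of alveolar cells, was 96.5 and 127 CPM in THC, 284 and 273 CPM in TLC, 13.7 and 22.9 CPM in TBC, 169 and 165 CPM in LC and 41.4 and 24.5 CPM in BC. Its population order was that of Ehf. Wfdc18 rose by 3.91 ± 0.32 log2 in TLC against TBC (adjusted p = 4.9e-05), by 2.59 ± 0.31 in THC against TBC (adjusted p = 0.0015) and by 2.36 ± 0.30 in LC against BC (adjusted p = 2e-04).

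Among the caseins, Csn1s1, Csn2 and Csn1s2a were highest in hybrid cells, but no casein was called in THC against TBC or in THC against TLC. Csn1s1 was 558 and 686 CPM in THC and at most 397 CPM, in LC replicate 1, elsewhere. Csn3 was 406 and 741 CPM in THC, 437 and 414 CPM in TLC, 65.5 and 111 CPM in TBC, 1089 and 555 CPM in LC and 167 and 41.6 CPM in BC. Csn3 was called higher in LC against BC (adjusted p = 0.0093), a call that remained whichever library was left out and in 6 of 8 other settings. It was also called higher in TLC against TBC, by 2.26 log2. That call remained in 6 of 8 other settings and was lost without some single libraries. Csn2, the beta-casein gene, was 336 and 481 CPM in THC, 22.3 and 133 CPM in TLC, 39.5 and 81.4 CPM in TBC, 22.8 and 5.74 CPM in LC and 6.86 and 0.510 CPM in BC. Csn1s2a was 86.8 and 146 CPM in THC, 2.28 and 19.5 CPM in TLC, 15.5 and 25.7 CPM in TBC, 0.867 and 0.215 CPM in LC and 0.784 and 0.0850 CPM in BC. Both THC libraries were above the other 8 for Csn2 and Csn1s2a. Csn1s2a was called higher in THC against LC (adjusted p = 0.0037), a call that remained whichever library was left out. Ltf, which encodes lactoferrin, had another pattern, at 248 and 467 CPM in TLC and 1923 and 1538 CPM in LC. It fell by 2.28 on the log2 scale there (SE 0.41, adjusted p = 0.0075), a call lost without TLC replicate 1 (adjusted p = 0.076), and it fell by 2.49 in THC against LC (SE 0.42, adjusted p = 0.0032).

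**Figure D5:**
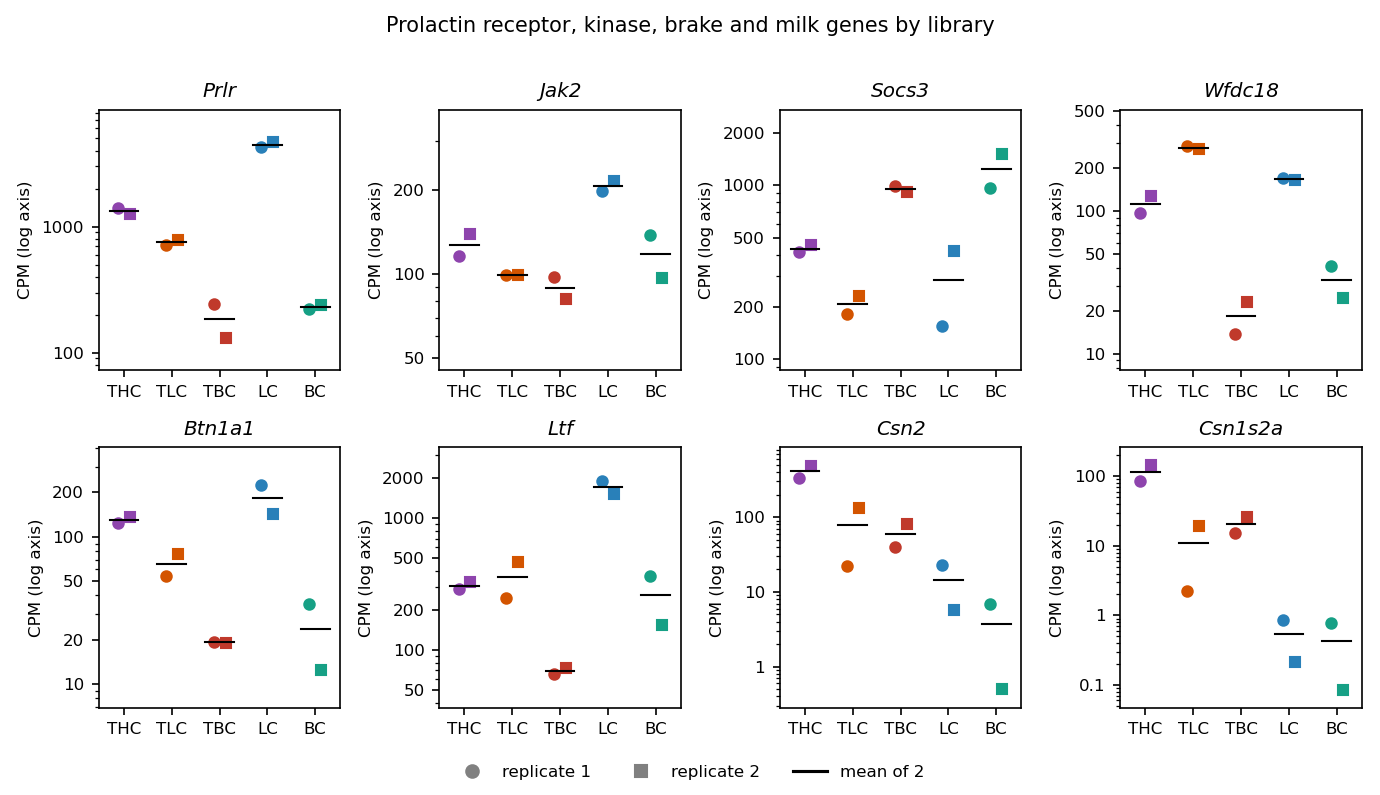
Levels of the prolactin receptor, Jak2, Socs3 and 5 milk genes in every library, in TMM-scaled CPM on a log axis; circles are replicate 1, squares replicate 2 and bars the mean of 2. Prlr, Jak2 and Ltf are highest in LC, Socs3 is highest in the basal populations, Wfdc18 is highest in TLC, and Csn2 and Csn1s2a are highest in THC.

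Of 20 other ETS factors tested (22 listed), 3 rose and 2 fell in LC against BC, 3 rose in TLC against TBC, 3 rose in TLC against LC, and none was called in THC against TLC. In THC 1 rose against TBC, 2 rose against BC, and 3 rose and 1 fell against LC. The 5 of 20 called in LC against BC stand beside 24% of all genes, and the other shares of all genes were 13.6% in TLC against TBC, 8.22% in TLC against LC, 1.61% in THC against TLC, 3.72% in THC against TBC, 7.71% in THC against BC and 12.9% in THC against LC. Spdef, an ETS factor of secretory epithelia, was 8.77 and 14.0 CPM in TLC and 0.789 and 1.32 CPM in TBC, and it rose by 3.36 ± 0.53 log2 (adjusted p = 0.0015). Spdef likewise rose in LC against BC, by 3.68 ± 0.53 (adjusted p = 0.00041). Etv6 rose in both lineage comparisons, by 1.13 ± 0.20 in TLC against TBC (adjusted p = 0.0032) and 0.97 ± 0.20 in LC against BC (adjusted p = 0.0045). Elk3 ran the other way, falling by 1.34 in LC against BC (SE 0.21, adjusted p = 0.0007), and it was 59.3 and 62.1 CPM in THC against 22.3 and 18.0 CPM in LC, a rise of 1.59 ± 0.21 (adjusted p = 0.00082). Etv5 was 64.2 and 77.3 CPM in TLC and 12.7 and 20.1 CPM in LC, and it rose by 2.10 ± 0.40 (adjusted p = 0.01), a call lost without LC replicate 1 (0.058) or either TLC library (0.056 each).

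Of 14 luminal progenitor genes, 4 rose and 1 fell in LC against BC, and 4 rose in TLC against TBC and in THC against TBC. In THC against BC 2 rose and 1 fell, in TLC against LC 1 rose and 1 fell, and in THC against LC 1 rose. The shares over all genes were 24% in LC against BC, 13.6% in TLC against TBC, 3.72% in THC against TBC, 7.71% in THC against BC, 8.22% in TLC against LC and 12.9% in THC against LC. In TBC against BC no gene of any of the 5 lists was called. Aldh1a3, an enzyme used to mark luminal progenitors, was 27.9 and 80.9 CPM in THC, 91.7 and 138 CPM in TLC, 8.05 and 9.09 CPM in TBC, 112 and 135 CPM in LC and 15.1 and 16.2 CPM in BC. It rose by 3.74 ± 0.44 log2 in TLC against TBC (adjusted p = 0.00042) and by 2.98 ± 0.42 in LC against BC (adjusted p = 0.0006). Kit, a receptor of progenitor cells, rose by 3.21 ± 0.55 in TLC against TBC (adjusted p = 0.0041) and by 2.95 ± 0.54 in LC against BC (adjusted p = 0.0033). As for Elf5, THC replicate 2 was above THC replicate 1 for Aldh1a3, and Kit was 82.9 and 269 CPM in THC.

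Across the 10 libraries, which share the 5 populations, log2 CPM of Elf5 and Ehf had a Pearson r of 0.96, and that of Stat5a and Stat5b was 0.89. Cish and Socs2 were less alike (r = 0.59), and Elf5 and Stat5a had an r of 0.12. Among 10690 genes with a mean of at least 10 CPM, the 3 most like Elf5 were Mansc1 (r = 0.979), Kcnk5 (0.976) and Grhl1 (0.975). For Ehf they were Wfdc18 (0.994), Gm17089 (0.992) and Zfp750 (0.987), and for Elf3 they were Il18bp (0.96), Ell (0.958) and Zc3h12a (0.957). Stat5a was closest to Uvssa (0.957), Gm25994 (0.945) and Gm26802 (0.94), and Stat5b to Galnt11 (0.928), Galt (0.928) and Rcan3 (0.914). Cish was closest to Fxyd6 (0.975), Ddrgk1 (0.943) and Med13l (0.937), and Socs2 to Hsd17b11 (0.905), H2-T-ps (0.902) and Tomm34 (0.894).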

How the data were processed

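The authors deposited raw counts per Ensembl gene for 10 libraries. STAR, HTSeq and GRCm38 (mm10) are named per the submitters' processing notes; their versions and any strand option are not given in the sources used. HTSeq's summary lines were left out of library sizes: reads not uniquely placed were 14.6% to 43%, reads in no gene 12.6% to 30.8% and ambiguous reads 2.71% to 3.48%, each relative to all counted lines. Symbols, coordinates and union exon lengths came from GENCODE M21, and 345 of 49671 identifiers were not matched.

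Counts were tested with edgeR 4.0.16 (R 4.3.3): TMM scaling, filterByExpr by population, 1 coefficient per population over all 10 libraries, robust quasi-likelihood F-tests with 5 residual degrees of freedom, and Benjamini-Hochberg adjustment over 19757 genes at 0.05. CPM use TMM-scaled library sizes, with a prior count of 2 on the log2 scale. The comparisons of populations share libraries. Alternatives were RLE and upper-quartile scaling, DESeq2 1.42.0, limma-voom (limma 3.58.1), no filter, 5 CPM in 2 libraries, the populations compared alone, a block on the library set, and leaving out each library. The scripts were tested on simulated data.

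The 7 genes, the lists and the tests were chosen with earlier results of these data known. List genes named are called ones with the smallest adjusted p, up to 3 for each list and comparison. Not every such gene is named, and some of the named calls were lost when a library was left out. Csn1s1, Csn2 and Csn3 fall outside this rule: they were picked with their levels already known.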

Additional observations from a re-analysis of the deposited data

Results flagged for a closer look

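In the difference between the ablation comparisons, (TLC against LC) minus (TBC against BC), 2 genes of the receptor, JAK and STAT list passed the interaction test, and none of the 7 ETS and Stat5 genes did. Prlr had a value of -2.27 ± 0.44 log2 (adjusted p = 0.041), being 718 and 781 CPM in TLC and 4247 and 4683 CPM in LC, but 243 and 130.1 CPM in TBC and 221 and 238 CPM in BC. Stat4 had a value of 5.11 ± 0.99 log2 (adjusted p = 0.041), being 12.5 and 16.4 CPM in TLC and 0.867 and 0.431 CPM in LC, but 0.474 and 1.17 CPM in TBC and 2.35 and 0.680 CPM in BC. The Prlr call was lost without any 1 library other than LC replicate 1 or TBC replicate 2 (adjusted p = 0.066 to 0.16). The Stat4 call was lost without either TLC library, either TBC library, LC replicate 2, BC replicate 1 or THC replicate 2 (adjusted p = 0.054 to 0.16). Prlr was also not called with upper-quartile scaling (0.057), the 5 CPM filter (0.052) or the populations compared alone (0.064), and Stat4 with limma-voom (0.07) or the 5 CPM filter (0.052).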

How the results depend on the processing

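Of 1386 values of the 7 genes recomputed under 18 settings, 1278 kept their direction and their side of the threshold, 45 that were not called changed sign, 31 lost the call, 32 gained it and none that was called reversed. In TLC against LC, 1 of the 7 genes was called, against 3 with upper-quartile scaling, DESeq2 or the 5 CPM filter, 2 with limma-voom and 4 with no filter. In TBC against BC, DESeq2 and no filter each called 1 gene, against 0, and over all genes they called 207 and 398. No filter called 4 in THC against LC, against 1, and DESeq2 and no filter each called 1, against 0, in THC against the mean of TBC and TLC and in the lineage difference. The labels share no replicate number; the deviations of same-set libraries correlated between -0.0124 and 0.421, over 0.1 in 8 of 10 population pairs. As that was not so in every pair, the sets were not taken as pairs, which does not show that they are alike. With a replicate block on the sets, 5 genes were called in TLC against LC, by the gain of Stat5a (adjusted p = 0.014), Stat5b (0.026), Socs2 (0.028) and Cish (0.033), 2 in THC against LC by the gain of Stat5a (0.016), and 1 in TBC against BC, Elf3 (0.031). Stat5b in LC against BC (0.034) and Stat5a in the average contrast (0.02) were gained too. Without each library in turn, the calls ranged from 0 to 3 in THC against BC, 1 to 2 in TLC against LC and in THC against LC, 1 to 3 in THC against TBC and in the average contrast, and 0 to 1 in THC against TLC. The causes were not tested.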
